A study of Mus musculus with 12 samples.

Results

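Of the 75281 consensus peaks of open chromatin in the deposited table, 6254 (8.31%) lay in gene deserts. A peak was counted here when it lay on a numbered chromosome, was under 3000 bp wide, and had its centre outside every protein-coding gene and more than 50 kb from the nearest end of one. This rule uses position and width only, from a RefSeq gene table of GRCm38.p6, and no measured signal. The peaks fell in 1281 deserts, where a desert is the gap between neighbouring protein-coding genes. Of these deserts, 408 held 1 such peak, the median was 2, and the 164 deserts with at least 10 held 3057 peaks (48.9%).

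The libraries are ATAC-seq of bone marrow from mice of the inbred NZO/HILtJ strain, which is prone to obesity and diabetes, at 3 or 18 months of age, with 3 females and 3 males at each age and 1 mouse per library. No genotype or treatment other than the strain is given. The assay tags DNA where the Tn5 enzyme can reach it between nucleosomes, and the read count of a peak is therefore a measure of how open it is. Females of 18 months were sequenced in run 14 and males of 18 months in run 15. Females of 3 months were in runs 28, 29 and 31 and males of 3 months in runs 29, 30 and 31, 1 library of a sex in each, so that a 3-month library is named here by its sex and run. No run held both ages, so age and run cannot be told apart, nor can sex and run at 18 months.

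Gene deserts are long stretches with no protein-coding gene. Those beside regulators of development and blood formation often hold enhancers, which are bound by transcription factors and contact the promoter of a distant gene through looping of the chromatin. They also hold long non-coding RNA (lncRNA) genes and, in lymphocytes, the variable segments of the antigen receptor loci. GATA factors drive red cell and megakaryocyte genes through GATA motifs in such elements, and C/EBP and AP-1 factors act on those of myeloid cells.

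The promoter table gave sequence for 111 lncRNA start sites whose whole window, from 250 bases before to 50 after the start, lay inside 105 of the desert peaks. The 5 windows printed here are examples of these start sites, not of desert peaks at large. Of the called peaks that hold such a window, those with the 2 largest rises and the 2 largest falls with age are shown. The window of Morrbid, a lncRNA known to restrain transcription of the pro-apoptotic gene Bcl2l11 in short-lived myeloid cells, is added. Morrbid was chosen after its values were seen. All are RefSeq sequence of GRCm38.p6 in the direction of transcription. Capitals mark matches, on either strand, to a motif of the GATA family with the letters AGATAA, of ETS factors with GAGGAAGT, of RUNX factors with TGTGGTT, of C/EBP with TTGCNNAA, of AP-1 with TGANTCA or of CTCF with NAGGGGGC. The windows are Gm35413 at chr13:5803106-5803405 (minus strand), Gm31450 at chr13:15931432-15931731 (plus), Gm40822 at chr11:31169797-31170096 (minus), Gm39895 at chr2:103893810-103894109 (plus) and Morrbid at chr2:128429302-128429601 (minus).
Gm35413: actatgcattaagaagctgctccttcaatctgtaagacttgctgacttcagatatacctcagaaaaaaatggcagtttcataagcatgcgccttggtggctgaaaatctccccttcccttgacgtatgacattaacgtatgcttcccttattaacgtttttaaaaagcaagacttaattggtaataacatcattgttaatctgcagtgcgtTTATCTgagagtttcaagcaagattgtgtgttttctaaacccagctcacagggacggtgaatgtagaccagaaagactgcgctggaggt
Gm31450: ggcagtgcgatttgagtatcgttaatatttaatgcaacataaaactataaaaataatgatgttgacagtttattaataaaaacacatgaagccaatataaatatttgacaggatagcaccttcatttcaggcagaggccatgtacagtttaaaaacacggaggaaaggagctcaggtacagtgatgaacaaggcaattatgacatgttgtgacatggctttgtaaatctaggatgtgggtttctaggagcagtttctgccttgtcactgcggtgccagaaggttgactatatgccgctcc
Gm40822: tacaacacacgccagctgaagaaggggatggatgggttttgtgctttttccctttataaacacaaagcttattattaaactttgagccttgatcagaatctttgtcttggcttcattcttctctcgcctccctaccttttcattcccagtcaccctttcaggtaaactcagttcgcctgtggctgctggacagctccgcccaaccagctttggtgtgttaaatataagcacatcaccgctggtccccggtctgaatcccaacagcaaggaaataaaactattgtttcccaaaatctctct
Gm39895: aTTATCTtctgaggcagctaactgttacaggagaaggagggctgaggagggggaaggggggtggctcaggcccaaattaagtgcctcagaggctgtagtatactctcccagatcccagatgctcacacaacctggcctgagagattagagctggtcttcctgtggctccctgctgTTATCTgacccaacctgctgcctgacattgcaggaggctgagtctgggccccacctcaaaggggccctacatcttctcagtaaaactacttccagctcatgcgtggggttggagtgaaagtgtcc
Morrbid: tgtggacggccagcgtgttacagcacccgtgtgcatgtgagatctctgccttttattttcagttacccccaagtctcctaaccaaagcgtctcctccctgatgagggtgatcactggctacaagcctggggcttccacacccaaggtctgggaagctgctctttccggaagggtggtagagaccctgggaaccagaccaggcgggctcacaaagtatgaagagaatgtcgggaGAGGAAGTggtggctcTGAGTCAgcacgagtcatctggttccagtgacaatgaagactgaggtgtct

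The GATA letters, which read TTATCT on the opposite strand, occurred 1 time in the Gm35413 window and 2 times in the Gm39895 window. They were not in the windows of Gm31450, Gm40822 or Morrbid, and the Morrbid window held 1 ETS and 1 AP-1 match. The GATA letters were in 11.2% of the 32851 promoter windows of this length and in 13.98% of the 11588 lncRNA windows. They were in 8 of 22 windows of desert peaks that were lower at 18 months (36.4%), in 5 of 17 that were higher (29.4%) and in 6 of 72 in peaks past neither threshold (8.33%). The windows of lower peaks therefore held the letters at about the share of the higher ones, and the counts are small. C/EBP letters were in 4 of the 22 and 3 of the 17, and AP-1 letters in 1 of the 22 and 3 of the 17. These matches describe letters, not bound sites.

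At the peak that holds the Gm39895 start (chr2:103892767-103894485), in the desert of Caprin1 and Lmo2, accessibility ranged from 15.9 to 21.4 CPM (counts scaled to a common library size; median 17.4) at 18 months and from 30.4 to 45.5 CPM (median 38.4) at 3 months. The ages did not overlap, and the log2 fold change of 18 over 3 months was -1.06 ± 0.11 (SE; edgeR quasi-likelihood adjusted p = 2.75e-10). Lmo2 encodes a bridging subunit of the transcription factor complexes that specify blood stem and red cells. At the Gm40822 peak (chr11:31168875-31170451), between Asb3 and Stc2, values of 9.15 to 14.6 CPM (median 11.8) at 18 months stood against 19.8 to 31.6 CPM (median 26.2) at 3 months.

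The Gm35413 peak (chr13:5802036-5804155) lay 58.4 kb from Klf6, which encodes a zinc-finger factor active in macrophages. It held 28.6 to 37.0 CPM (median 32.9) at 18 months and 14.3 to 23.3 CPM (median 19.98) at 3 months, again with no overlap (log2 fold change 0.79 ± 0.11, edgeR adjusted p = 1.54e-07). The Morrbid peak (chr2:128427589-128430011) held 34.0 to 46.7 CPM (median 40.3) at 18 months and 23.7 to 37.1 CPM (median 27.6) at 3 months. It rose by 0.49 ± 0.11 on the log2 scale (edgeR adjusted p = 0.000454), although the highest 3-month library stood above the lowest 18-month ones.

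Desert peaks were narrow and weak. Their median width was 547 bp and their median level 5.06 CPM, against 705 bp and 7.0 CPM over all peaks, while per kb of peak the medians were 9.33 and 10.2 CPM. The median distance to a protein-coding gene end was 111 kb, with a range from the 50 kb limit to 2162 kb. Of the members, 6235 passed the filter on low counts, and the 19 that did not were left out of tests. Library totals ran from 7668099 to 12756647 counts.

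Marker genes were used to see which cells the libraries held, by the strongest peak within 3 kb of a gene end. Such a peak was present for 18 of 20 erythroid genes, 19 of 20 neutrophil and monocyte genes and 11 of 12 B cell genes, but for 7 of 12 T cell genes, with none for Cd3e, Cd8a, Cd8b1, Cd4 and Bcl11b. The labels' protocol describes sorted T cells (CD3e and CD8), while the tissue is given as bone marrow, and the markers are those of mixed marrow. Summed erythroid marker levels were 453 to 513 CPM at 18 months and 792 to 1035 CPM at 3 months, and 17 of the 18 peaks fell, Slc4a1 (the anion exchanger of red cells) by 1.14 on the log2 scale (edgeR adjusted p = 9.95e-13). Of 19 neutrophil and monocyte peaks, 9 rose and 1 fell, and their sum was 493 to 567 CPM at 18 months and 381 to 549 CPM at 3 months. In bulk marrow, fewer cells of a type and less open chromatin per cell cannot be told apart, and the part these shifts play in the desert results was not tested.

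Desert peaks were more often higher than lower at 18 months. With sex as a covariate, 1136 of the 6235 tested peaks were higher and 403 lower at 18 months (edgeR quasi-likelihood test, Benjamini-Hochberg adjusted p under 0.05 over all 75164 tested peaks). Over all tested peaks, 21% passed in either direction, 9.43% as higher and 11.6% as lower, against 18.2% and 6.46% of the desert peaks. Higher peaks thus made up 73.8% of the called desert peaks, while they made up 41.8% of the calls outside deserts. The median log2 fold change was 0.19 in deserts and 0.02 over all tested peaks. With libraries scaled by total counts the calls were 1597 higher and 310 lower (83.7% higher), and with offsets that remove the trend with abundance they were 936 and 470 (66.6%). Over all tested peaks the same scalings gave 14.9% higher and 8.82% lower with total counts, where the median log2 fold change of all peaks was 0.10, and 9.53% and 10.4% with abundance offsets.

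The balance ran in steps from genes to deserts. Peaks within 3 kb of a gene end had 1076 higher and 3101 lower calls (median log2 fold change -0.05), peaks deep inside genes 2507 and 2782 (0.03), intergenic peaks 3 to 50 kb from a gene 2069 and 1115 (0.12), and desert peaks a median of 0.19. Within deserts, calls were 458 higher and 212 lower of 2802 peaks at 50 to 100 kb, 373 and 116 of 1841 at 100 to 200 kb, 215 and 61 of 1127 at 200 to 500 kb, and 90 and 14 of 465 beyond 500 kb. The medians over these bins were 0.14, 0.21, 0.23 and 0.26. The share of lower calls fell from 7.57% in the nearest bin to 3.01% in the farthest, while median levels went from 5.43 to 4.18 CPM. The share of higher calls was 16.3% in the nearest bin and between 19.1% and 20.3% in the others.

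Changes at single desert peaks were modest. Past the threshold, the median size of the log2 fold change was 0.58. Rises of 2-fold or more numbered 34 and falls of that size 12, and the log2 values ran from -1.17 to 1.54. Peaks that fell were wider (median 872 bp) and stronger (8.92 CPM) than those that rose (633 bp and 6.52 CPM). The ages did not overlap in CPM at 261 peaks that were higher and 189 that were lower (4.19% and 3.03%), where over all tested peaks the shares were 2.2% and 5.04%. With CPM scaled to library totals these were 434 and 148 desert peaks, and 3.74% and 3.99% of all tested peaks.

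Since weak peaks leaned upward across the whole table, desert peaks were set beside other peaks under 3 kb of like abundance. In the lowest quartile of mean CPM, 11.1% of 2624 desert peaks were higher and 2.25% lower, against 6.27% and 2.44% of other narrow peaks. In the highest quartile, 169 of 666 desert peaks were higher and 126 lower (25.4% and 18.9%), while other narrow peaks had 8.91% higher and 25.7% lower. The share of higher calls in deserts was above that of other narrow peaks in each quartile. Intergenic peaks 3 to 50 kb from a gene, which are among those other peaks, shared this lean, as 8.39% were higher in quartile 1 (the weakest), while 20.3% were higher and 17.4% lower in quartile 4 (the strongest). With offsets that remove the trend with abundance, the highest quartile had 36.3% higher and 17.4% lower in deserts against 30.2% and 15.3% of the intergenic peaks nearer to genes and 16.4% and 17.8% of other narrow peaks, so that the lean of other strong peaks to lower calls was nearly gone. The lowest quartile then had 6.14% higher and 3.70% lower in deserts against 3.395% and 4.19%.

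**Figure D1:**
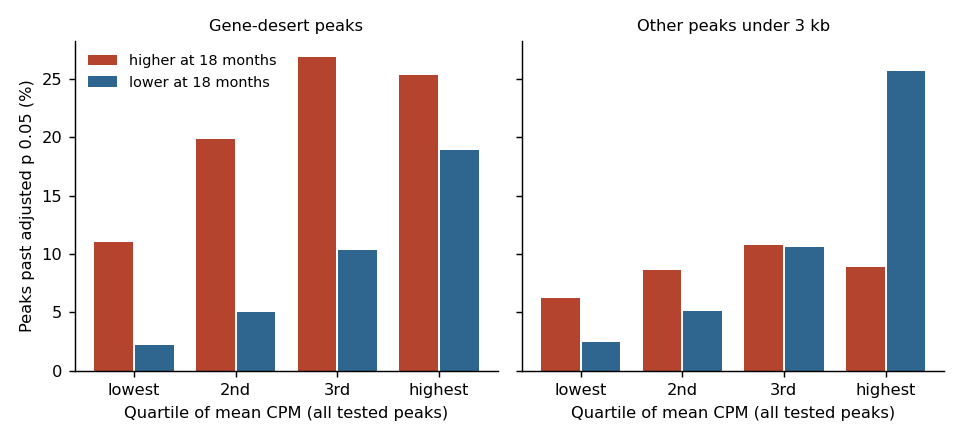
Share of tested peaks past an edgeR adjusted p of 0.05 as higher (red) or lower (blue) at 18 months, by quartile of mean CPM over all tested peaks. Higher calls exceed lower ones in all 4 quartiles of desert peaks, while in the highest quartile of other narrow peaks 25.7% were lower and 8.91% higher (17.8% and 16.4% with abundance offsets, which are not drawn).

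The summed signal moved the same way. Desert peaks held 5.42% to 6.13% of the counts of an 18-month library (5.78% ± 0.272, SD, n = 6) and 4.96% to 5.39% of a 3-month one (5.203% ± 0.171, SD, n = 6), with no overlap. By group, the mean share was 5.55% in females and 6.001% in males at 18 months, and 5.21% in females and 5.19% in males at 3 months. The sexes did not overlap at 18 months, where each had a run of its own, and did at 3 months. A chain of 4 peaks on chromosome 2, between Lrrc4c and Iftap, took 13.1% to 18.7% of all desert counts. Without it, the share was 4.71% to 5.10% at 18 months and 4.13% to 4.53% at 3 months.

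**Figure D2:**
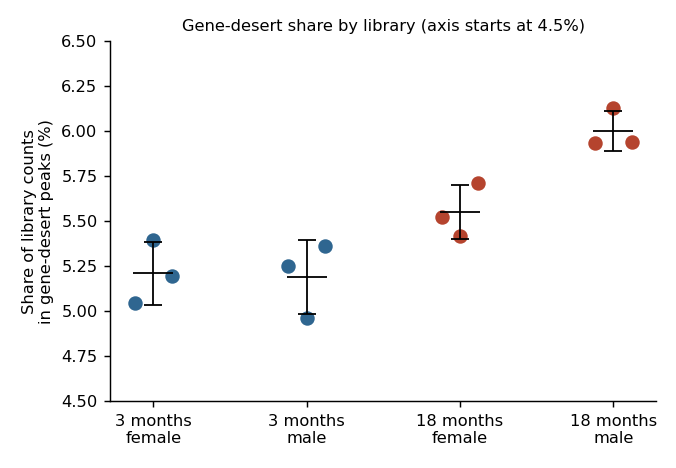
Percent of each library's counts that fell in gene-desert peaks, by age and sex; points are libraries (3 per group), and the bar and whiskers are the mean ± SD. All 18-month libraries lie above the 3-month ones, and the 18-month males lie highest.

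That chain held the strongest desert peaks of all. Its peak at chr2:98666236-98667331 averaged 6230 CPM, at 98662181-98662980 it averaged 1971 CPM and at 98664882-98665218 it averaged 569 CPM. The locus is known in this build as a site where repeat reads pile up. With both sexes in the fit, none of these peaks passed the threshold for age (log2 fold changes -0.12, -0.10 and -0.11; edgeR adjusted p = 0.292, 0.412 and 0.364). Within females the first and second fell (-0.34 and -0.28; edgeR adjusted p = 0.00921 and 0.045). The first also passed without the 3-month male of run 30 (-0.16, edgeR adjusted p = 0.0393), the third with width offsets (-0.24, edgeR adjusted p = 0.00132), and the second with abundance offsets in the opposite direction (0.19, edgeR adjusted p = 0.0303). The next in level per kb were chr12:97061435-97061787 at 294 CPM, between Flrt2 and Galc, and chr11:109011645-109012116 at 318 CPM, between Axin2 and Rgs9. The former rose by 0.26 (edgeR adjusted p = 0.0359), a call that was lost in 6 of 12 fits with 1 library left out and also with width offsets (0.13, edgeR adjusted p = 0.256), with no filter (edgeR adjusted p = 0.0559) and with DESeq2 (adjusted p = 0.066). The latter held 252.4 to 315 CPM at 18 months and 301 to 393 CPM at 3 months, and fell by 0.34 (edgeR adjusted p = 0.00118), a change that offsets for abundance took away (-0.06, edgeR adjusted p = 0.513).

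The 5 peaks farthest from any protein-coding gene, beside protocadherin genes such as Pcdh9, Pcdh17, Pcdh20 and Pcdh7 or beside Tmeff2, were all weak, with means from 2.18 to 3.00 CPM. None passed the test for age, and their log2 fold changes ran from -0.12 to 0.60 with standard errors of 0.23 to 0.29. At the limits of the rule, the nearest desert peaks inside the 50 kb limit had log2 fold changes of 0.46, 0.17 and 0.20, and the nearest peaks outside it -0.44, -0.91 and 0.49. At the width limit the values were 0.51, 0.27 and -0.75 inside and 0.22, -0.21 and 0.15 outside.

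Among strong desert peaks whose ages did not overlap, the largest rises were close to 1 on the log2 scale. The peak at chr1:146316126-146317201 lay 179 kb from Brinp3 and 1541 kb from Rgs18. It held 8.79 to 12.8 CPM (median 11.6) at 18 months and 4.38 to 7.29 CPM (median 5.65) at 3 months (0.98 ± 0.15, edgeR adjusted p = 1.22e-06). Rgs18 encodes a regulator of G-protein signals found in platelets and myeloid cells. The peak at chr13:15950882-15951667 lay 53.0 kb from Inhba, the subunit of activin A, inside the transcribed pseudogene B230303A05Rik, which also spans the Gm31450 start printed above. It held 8.43 to 13.8 CPM (median 9.64) against 4.22 to 6.02 CPM (median 5.27), a rise of 0.98 ± 0.15 (edgeR adjusted p = 2.84e-06).

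The other rises by this rule were between Mmadhc and Rnd3, Sp3 and Ola1, Epha6 and Nsun3, Slc16a14 and A530032D15Rik, Cd47 and Bbx, Foxo6 and Scmh1, Bcl6 and Lpp, and Bcl2l11 and Spdye4c. Their log2 fold changes ran from 0.84 to 0.90. The peak at chr16:49970097-49970963 lay 58.0 kb from Cd47, which encodes the surface signal that protects cells from phagocytosis, and held 7.999 to 15.1 CPM at 18 months and 4.98 to 6.77 CPM at 3 months. The peak at chr16:24136255-24137043 lay 148 kb from Bcl6, the germinal centre repressor, and held 9.25 to 12.0 CPM against 4.35 to 7.72 CPM.

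The largest falls by the same rule of abundance and no overlap were somewhat deeper. Over all called desert peaks the log2 fold changes ran from -1.17 to 1.54. The peak at chr6:127322353-127323240 lay 171 kb from the G1 cyclin gene Ccnd2 and 124 kb from Parp11. It held 4.70 to 10.03 CPM (median 6.41) at 18 months and 12.2 to 20.1 CPM (median 14.99) at 3 months (-1.17 ± 0.14, edgeR adjusted p = 2.13e-08). The Runx1 peak at chr16:93127778-93130257 lay 303 kb from that gene, a master factor of blood stem cells and megakaryocytes. It held 17.1 to 22.1 CPM (median 19.97) against 33.2 to 42.1 CPM (median 39.99), and fell by 0.96 ± 0.10 (edgeR adjusted p = 5.03e-10). The peak at chr2:6263596-6264668 between Echdc3 and Usp6nl held 8.15 to 12.5 CPM against 18.2 to 27.5 CPM (-1.14 ± 0.12, edgeR adjusted p = 4.03e-10).

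The remaining falls included -1.13 between Zswim2 (111 kb away) and Calcrl (279 kb), a receptor of adrenomedullin. Another of -1.13 lay between Ptger4, a prostaglandin E2 receptor, and Dab2. The others were -1.04 at 71.1 kb from Med13l, a Mediator subunit, and -1.02 between Gpbp1 (58.3 kb) and Mier3 (138 kb). The last was -0.97 at 259 kb from Nuak1, beside the Gm40822 and Gm39895 peaks described above. All 10 falls passed the edgeR test within each sex. Of the 10 rises, 9 passed in both sexes. The peak between Bcl2l11 and Spdye4c passed in males (1.08) but not in females (0.62, edgeR adjusted p = 0.0534). Of the 10 falls 5 had their centre in a lncRNA gene, as did 1 of the 10 rises and 22.7% of all desert peaks.

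**Figure D3:**
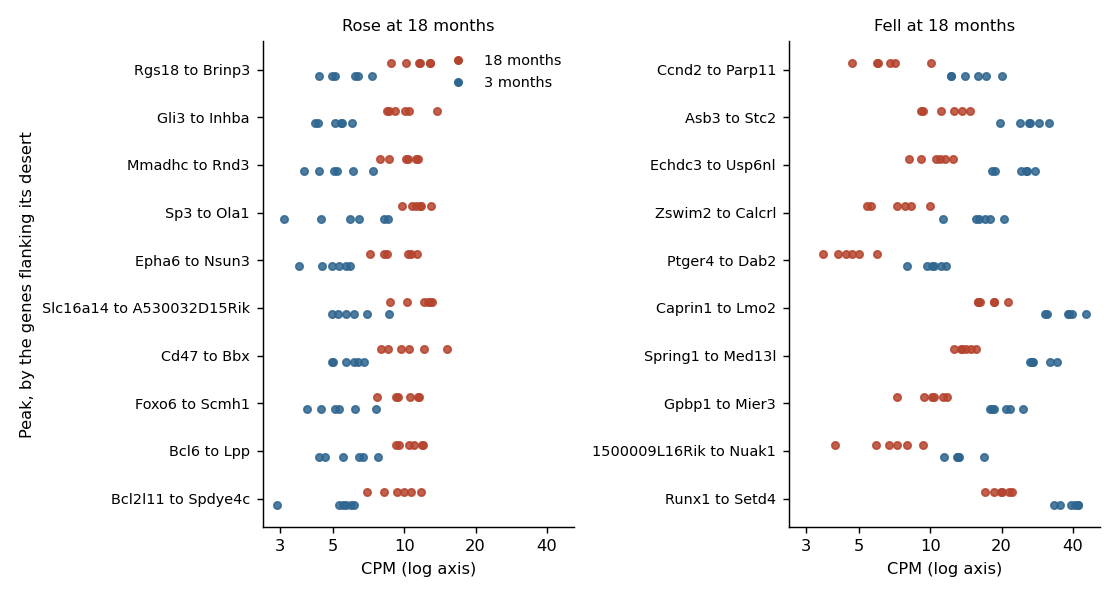
CPM on a log axis in each of the 12 libraries for the 10 rises and 10 falls named in the text. They are the largest among desert peaks past the threshold, at or above the median abundance of tested peaks and without overlap between ages. Points are libraries, red for 18 and blue for 3 months. The ages do not overlap in any row, as the rule for naming these peaks required.

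The genes beside the deserts were grouped by role from 5 lists of regulators. Next to myeloid regulators, 42 of 153 tested peaks in 13 deserts were higher (27.5%) and 2 lower (1.31%), with a median log2 fold change of 0.28. Beside growth and signal control genes 56 of 274 were higher and 13 lower (median 0.19), and beside lymphoid regulators 13 of 165 were higher and 9 lower (0.17), which offsets for abundance turned to 12 and 14 and total counts to 31 and 8. Beside stem and progenitor factors 11 of 94 were higher and 14 lower (-0.00), and beside erythroid and megakaryocyte regulators 5 of 32 were higher and 4 lower (0.18), which offsets for abundance turned to 3 and 5. For the stem and progenitor list, whose calls and median are near balance, these offsets gave 8 higher and 15 lower, and total counts 13 and 12. In deserts beside no listed gene, 1009 of 5517 peaks were higher and 361 lower (0.19). Leaving out the 3-month female of run 28 gave 27 higher and 1 lower beside myeloid regulators and 6 higher beside stem and progenitor factors. Leaving out the 18-month male 40 gave 1 lower beside myeloid regulators and 7 higher beside stem and progenitor factors. Without the 18-month female 42, 1 myeloid peak was lower and 3 erythroid ones were higher, while without the 18-month female 35 or male 38 the erythroid list had 3 or 2 higher. Without the 3-month male of run 30 the lymphoid list had 23 higher. No list was tested as a set.

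The Id2 desert held the most peaks of the myeloid group. Id2 encodes an inhibitor of basic helix-loop-helix factors used by dendritic and innate lymphoid cells. Of its 43 peaks 12 rose and 1 fell, and their summed level was 355 to 407 CPM (median 369) at 18 months and 298 to 403 CPM (median 319) at 3 months. The sums overlapped through the 3-month male of run 30, at 403 CPM. In the desert of Zeb2, which encodes a repressor needed by monocytes and dendritic cells, 5 of 26 peaks rose and 1 fell, and the sums did not overlap (182 to 222 against 143 to 179 CPM).

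Cebpb, a C/EBP factor of granulocytes and macrophages, had 6 rises and no fall among 26 peaks, with sums of 346 to 389 CPM against 285 to 368 CPM. Its gene-end peak had a log2 fold change of 0.02 (edgeR adjusted p = 0.921). In the Klf4 desert with Actl7b 6 of 14 peaks rose and none fell, the strongest call being chr4:55959776-55960345 at 1.01 ± 0.18 (edgeR adjusted p = 4.53e-05), with 5.71 to 10.0 CPM against 2.28 to 4.65 CPM. Klf4 specifies monocytes. Beside Maf, a macrophage factor, 5 of 10 peaks rose (3 with abundance offsets) and none fell, and beside Jun, an AP-1 subunit, 6 of 18 rose and none fell while the Jun gene-end peak also rose (0.30, edgeR adjusted p = 0.0201). Of the neutrophil and monocyte marker peaks 9 of 19 rose and 1 fell over the same libraries, with sums that overlapped between the ages, and their part was not tested.

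Deserts beside stem, progenitor and erythroid factors differed among themselves. In the Myb desert, which it shares with Hbs1l and which holds known distal enhancers of Myb in red cell precursors, 4 of 8 peaks fell and none rose. Their summed level was 31.9 to 45.7 CPM (median 41.9) at 18 months and 51.0 to 61.0 CPM (median 56.5) at 3 months. The ages did not overlap, and the Myb gene-end peak fell as well (-0.29, edgeR adjusted p = 0.0269). In the Lmo2 desert 4 of 14 peaks fell and none rose (136 to 153 against 168 to 203 CPM), beside a gene-end peak that fell by 0.65 (edgeR adjusted p = 3.90e-07).

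In the desert of Runx1 and Setd4, 5 of 25 peaks fell and 2 rose (161 to 174 against 188 to 210 CPM), while the Runx1 gene-end peak was at -0.01 (edgeR adjusted p = 0.955). Nfia, a factor of red cell fate, had 4 falls and no rise among 7 peaks toward Tm2d1 (46.4 to 54.2 against 60.0 to 77.3 CPM), all with negative log2 fold changes. On its other side, toward Gm12695, 1 of 2 peaks rose, and the Nfia gene-end peak was at 0.14. In the desert of Sox6, another factor of red cell development, 3 of 6 peaks rose and none fell (1 rise with abundance offsets), while the Sox6 gene-end peak fell by 0.35 (edgeR adjusted p = 0.024). Beside Kit, the stem cell factor receptor, 4 of 13 peaks over both sides rose and none fell. Beside Meis1, a homeobox factor of stem cells, 2 of 9 rose and none fell. Erythroid marker peaks fell over the same libraries (453 to 513 against 792 to 1035 CPM), and their part in the Myb, Lmo2, Runx1 and Nfia values was not tested.

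Lymphoid and growth regulators gave both directions. Ebf1, a founding factor of B cells, had 3 falls (5 with abundance offsets) and no rise among 18 peaks, and Bach2, a repressor of B and T cells, had 4 falls and no rise among 10, with sums of 59.6 to 77.0 CPM against 83.1 to 98.8 CPM. Bcl6 had 5 rises and no fall among 23. The Ccnd2 desert had 4 falls and no rise among 18 peaks (132 to 149 against 171 to 189 CPM), with the gene-end peak at a log2 fold change of 0.02 (edgeR adjusted p = 0.947). The desert of Rad51b and Zfp36l1, an RNA-binding protein that destabilises mRNAs, had 5 falls and 1 rise among 20 (no rise with abundance offsets).

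Beside Btg1 and Bcl2l11 no desert peak fell. Between Eea1 and Btg1, an antiproliferative gene of lymphocytes, 13 of 33 peaks rose and none fell (390 to 500 against 307 to 438 CPM). In the desert that holds Morrbid and is flanked by Bcl2l11, which encodes Bim, 11 of 25 rose and none fell, with sums of 217 to 268 CPM (median 228) at 18 months and 154 to 218 CPM (median 178) at 3 months. The Bcl2l11 gene-end peak went the other way, at 79.5 ± 7.53 CPM against 108 ± 15.5 CPM (SD, n = 6; -0.44 ± 0.09, edgeR adjusted p = 0.000533). The Nrip1 gene end also fell (-0.75, edgeR adjusted p = 9.19e-08) while 4 of 19 peaks in its deserts rose and none fell.

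**Figure D4:**
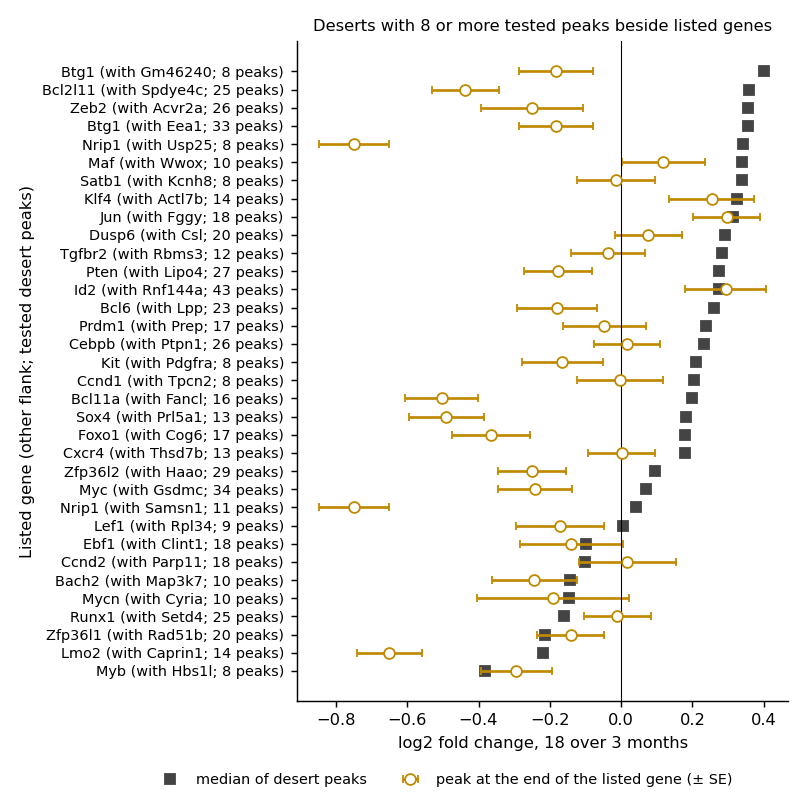
Log2 fold change of 18 over 3 months beside listed genes: squares are medians of desert peaks (8 or more tested peaks a desert), circles the strongest peak within 3 kb of an end of the listed gene, with its SE. At Bcl2l11 the desert median is positive and the gene end is at -0.44, while at Lmo2 and Myb both are below 0.

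Over the series, deserts and their flanking gene ends were only loosely related. Across 566 gene ends of 400 deserts with at least 5 tested peaks, the Spearman correlation of the desert median with the gene-end log2 fold change was 0.22, given as a description because both come from the same libraries. The desert median was positive beside 27 of 32 gene ends that rose, and negative beside 50 of 146 that fell, while 308 of the 400 desert medians were positive.

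An antibody locus held many desert peaks. Between Adam6a and Zfp386, over the Igh variable segments, 36 of 173 tested peaks rose and 1 fell, with sums of 1476 to 1717 CPM (median 1575) at 18 months and 1228 to 1465 CPM (median 1341) at 3 months. Of 11 B cell marker peaks, 1 fell and none rose, with sums of 150 to 209 CPM against 172 to 205 CPM. Outside all antigen receptor loci, 1096 of 5905 desert peaks were higher and 386 lower.

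Between Map3k1, a stress kinase, and Ankrd55, 13 of 43 peaks fell and 2 rose, with sums of 338 to 386 CPM against 421 to 506 CPM. Between Tbc1d1 and Gm38457, 13 of 38 fell and 1 rose (244.7 to 267 against 302 to 362 CPM). Between Nmbr and Cited2, which encodes a transcriptional coregulator needed by blood stem cells, 12 of 42 rose and none fell (258 to 280 against 196 to 221 CPM). None of these 3 deserts overlapped between the ages. The desert of Irf2bp2 and Tomm20 had 2 rises among 38 peaks, and that of Myc and Gsdmc, which holds distal blood enhancers of Myc, had 5 rises and 3 falls among 34 (193 to 234 against 189 to 214 CPM). Abundance offsets gave 3 of each there and turned the median log2 fold change from 0.07 to -0.02.

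Desert peaks were often grouped. Chains of at least 3 members no more than 20 kb apart, centre to centre, numbered 578 and held 3234 members (51.7%). Of the 3221 tested peaks in them 593 rose (18.4%) and 263 fell (8.17%), and of the 3014 outside them 543 rose (18.0%) and 140 fell (4.65%). Of the 209 clusters with at least 2 called peaks, 138 had rises alone, 47 had falls alone and 24 had both.

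The 8 largest clusters held 25 to 36 peaks each. In 5 of them no peak fell: between 5530400C23Rik and Gm5885 on chromosome 6 (9 of 36 rose), Gm9222 and Zfp996 on chromosome 12 (16 of 30), Cebpb and Ptpn1 (6 of 26), Id2 and Rnf144a (6 of 25), and BC048507 and Mtrr on chromosome 13 (8 of 25). In the other 3 falls led: 11 of 33 fell and 1 rose between Tbc1d1 and Gm38457, 7 of 29 fell and 1 rose between Cd24a and Qrsl1, and 8 of 25 fell and 2 rose between Map3k1 and Ankrd55. Single libraries moved some of these counts. Without the 3-month female of run 28, rises were 5 in the 5530400C23Rik cluster, 4 in the BC048507 cluster and 0 in the Tbc1d1 and Cd24a clusters. Rises were also 5 and 4 in the 5530400C23Rik cluster without the 18-month female 42 or male 38, and 4 in the BC048507 cluster without the 18-month male 39 or the 3-month male of run 29. In the Cebpb cluster they were 10 without the 18-month male 38 or the 3-month male of run 30, and in the Cd24a cluster falls were 4 without the 18-month male 38 or 40. The lone rises beside Cd24a and Tbc1d1 and the pair beside Map3k1 also moved by 1 without other libraries. Cd24a encodes a surface protein of early B cells and red cell precursors, and its gene-end peak fell too (-0.39, edgeR adjusted p = 0.000542).

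The clusters differed in texture. The 5530400C23Rik, Gm9222 and BC048507 clusters were even, with a median spacing of 2.14, 2.64 and 3.04 kb and a strongest peak that was 1.35, 1.29 and 1.35 times the median in CPM per kb. All 30 peaks of the Gm9222 cluster and all 25 of the BC048507 cluster had positive log2 fold changes, and the Gm9222 sum was 341 to 501 CPM against 261 to 340 CPM. No annotated lncRNA held a centre in these 3 clusters. The Cebpb cluster was uneven, with a strongest peak at 3.90 times its median, and 8 of its 26 peaks were in lncRNA genes. In the Tbc1d1 and Map3k1 clusters the falls reached -0.90 and -0.93 beside peaks that rose by 0.65 and 0.59.

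**Figure D5:**
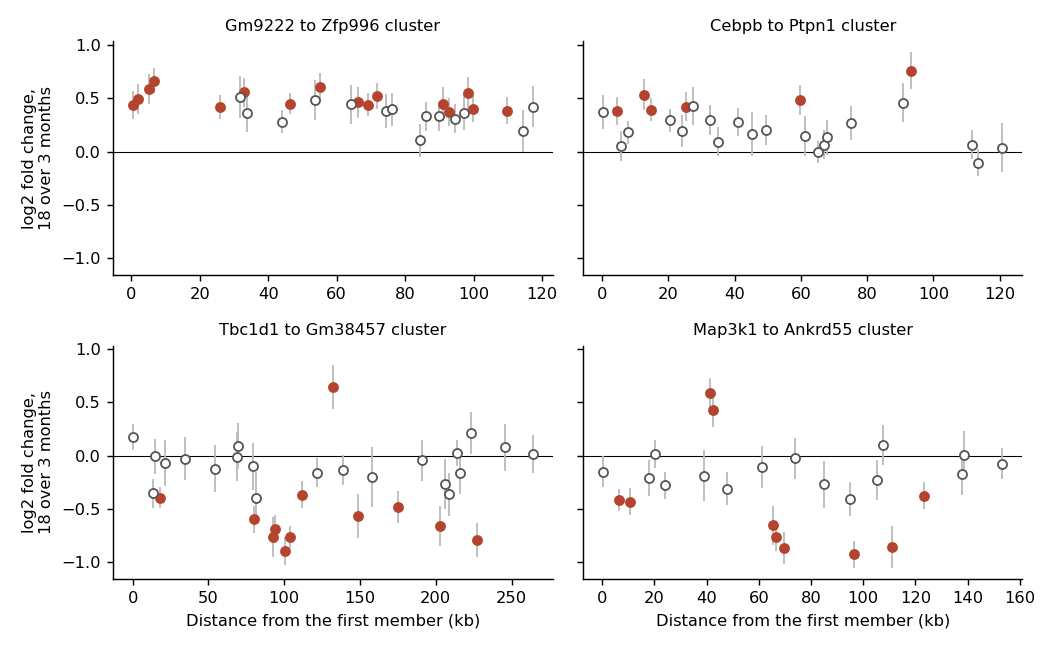
Log2 fold change (± SE) of 18 over 3 months at each peak of 4 clusters, by distance from the start of the first member; filled points passed an edgeR adjusted p of 0.05. All points of the Gm9222 to Zfp996 cluster are above 0, and the Tbc1d1 and Map3k1 clusters hold filled points on both sides.

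Centres inside a lncRNA gene were found for 1419 desert peaks, of which 17.7% rose and 9.03% fell. Among the 4817 tested peaks outside every lncRNA gene, 18.4% rose and 5.71% fell. The 105 peaks with a whole lncRNA start window had 16 rises and 22 falls but a positive median log2 fold change (0.07), a median width of 1001 bp and a median level of 11.3 CPM.

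Within females, 578 desert peaks were higher and 210 lower at 18 months, and within males 455 and 267, by edgeR. Over all tested peaks, 11.9% passed in females (5.7% as higher and 6.2% as lower) and 11.4% in males (3.21% and 8.18%). With total counts the male calls were 744 and 174 (6.11% and 5.45% of all tested peaks), and with width offsets 295 and 261 (2.91% and 4.90% of all). Calls in both sexes numbered 237 (30.1% of the female and 32.8% of the male calls), of which 110 were higher, 127 lower and 0 opposite. They were 1.76% and 2.04% of the tested desert peaks, where 0.685% of all tested peaks were higher and 3.57% lower in both sexes (4.26% in all). These comparisons had 3 libraries a group and moved with single libraries. Higher calls in females were 294 without the 18-month female 35 and 279 without female 36. They were 265 without the 3-month female of run 31 and 304 without that of run 28 (lower calls 130). Of all tested peaks, 2.835%, 2.295%, 2.33% and 2.78% were higher in these fits, and 3.46% lower in the last. Higher calls in males were 270, 198 and 270 without the 18-month males 38, 39 and 40, and 212 without the 3-month male of run 29 (lower calls 152). There 1.805%, 1.55%, 1.83% and 1.475% of all tested peaks were higher, and 4.52% lower in the last. The drop was thus shared by the whole table.

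A difference between the sexes in the age effect was called at 1 desert peak (edgeR), where over all tested peaks 0.00532% passed, and 647 desert peaks (10.4%) had an unadjusted p under 0.05, near the 9.998% of all tested peaks. At chr10:98776368-98776855, 138 kb from the calcium pump gene Atp2b1, females went from 7.22 ± 0.220 CPM to 18.4 ± 3.68 CPM with age and males from 13.4 ± 5.61 to 12.8 ± 2.06 CPM (SD, n = 3). The difference of the log2 fold changes was -1.42 ± 0.28 (edgeR adjusted p = 0.0492). Its call was lost in 9 of 12 fits with 1 library left out. Without the 3-month male of run 31, 97 desert peaks passed (1.56%, against 2.15% of all tested peaks), without the 18-month female 42 there were 2, without the 3-month male of run 29 there was 1, and without any other library none passed. DESeq2 called 3.

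Males and females differed at 2 desert peaks, where 0.162% of all tested peaks passed (0.0186% as higher in males and 0.144% as lower), with 397 (6.37%) at an unadjusted p under 0.05 against 7.57% of all tested peaks. The peak at chr1:89235029-89235716, between Sh3bp4 and Agap1, was higher in males, with 14.5 ± 2.40 CPM against 10.3 ± 2.34 CPM at 18 months and 12.8 ± 1.62 against 7.76 ± 1.34 CPM at 3 months (SD, n = 3; log2 difference 0.60, edgeR adjusted p = 0.0303). The peak at chr15:62169060-62170263, 179 kb from Myc, was lower in males (-0.54, edgeR adjusted p = 0.0309). Its 18-month females stood at 20.3 to 24.4 CPM, and the other 9 libraries at 11.5 to 15.02 CPM. These calls were lost in 7 and 8 of 12 fits with 1 library left out, while 13 desert peaks passed without the 3-month male of run 30, when 0.754% of all tested peaks did. In the 4 libraries of runs 29 and 31, with run as a factor, neither passed (0.67 and -0.14, edgeR adjusted p = 0.792 and 0.9999).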

How the data were processed

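Read counts over consensus peaks were deposited by the authors as 1 table of whole numbers for 12 ATAC-seq libraries, with no normalization. The submitters' processing notes name Trimmomatic, BWA, MACS2, DiffBind, edgeR and mm10, with no versions or roles. The smallest count in the table was 1, which compresses fold changes of the weakest peaks, and the treatment of duplicates and cut-site shift is not given in the sources used here.

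Gene positions came from RefSeq GRCm38.p6. The table has no strand, so a gene end is either end of a gene. Entries placed in the first 3 Mb of chromosomes (357, of which 108 protein-coding) were dropped, because no gene lies in those gaps. Peaks above 1 CPM in 2 or more libraries entered the tests, in edgeR 4.0.16 in R 4.3.3 (TMM scaling, glmQLFit and glmQLFTest, sex and age as terms, and 4 group means for effects within a sex and the interaction), tested on simulated data first. P-values were adjusted over all 75164 tested peaks at 0.05. CPM in the text is scaled by TMM. DESeq2 1.42.0 and limma-voom (limma 3.58.1) were alternatives, beside other scalings, filters, peak rules and leaving out each library.

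Named peaks passed the threshold, had a mean log2 CPM no lower than the median of the tested peaks, and had no overlap between ages; the 10 largest changes in each direction are given, with the 5 strongest per kb, the 5 farthest from genes and those called for sex or interaction. The members and the gene lists were chosen with earlier results of these data known. Separate mouse numbers are given as replicates, and counting error does not include PCR duplicates. Sequences of the peaks themselves are not used here.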

Additional observations from a re-analysis of the deposited data

Results flagged for a closer look

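At chr10:98776368-98776855 the log2 change with age was smaller in males than in females by a difference of -1.42, past the threshold in edgeR's interaction test (adjusted p = 0.0492). The 3-month males were spread from 8.70 to 19.6 CPM, the highest being that of run 30.

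In 4 of 116 groups of 6 libraries checked, 1 library stood apart from the others, where chance gives about 1 in 20 (5.8). The 3-month male of run 29 held 2.90 CPM at chr2:128470245-128470946, 121 kb from Spdye4c and 308 kb from Bcl2l11, below the others. The 3-month male of run 30 held 16.9 CPM at chr10:84111543-84112185, 259 kb from Nuak1, and a sum of 403 CPM over the Id2 desert, above the others. The 3-month female of run 31 held 4.86 CPM at chr14:90356632-90356995, between Pcdh20 and Pcdh9.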

How the results depend on the processing

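For age over all 12 libraries, higher and lower desert calls stayed within 1.5 times 1136 and 403 under every scaling, filter and tool run. They ran from 828 to 1267 and from 333 to 444 when 1 library was left out. In the fits at these ends 6.67% and 12.0% of all tested peaks were higher, and 9.90% and 12.9% lower. Narrower peak rules gave 678 and 191 beyond 100 kb, and 217 and 52 when non-coding genes also had to be 50 kb away, with fewer peaks tested. Female calls ran from 265 to 743 higher and from 130 to 261 lower without 1 library. At these ends 2.33% and 7.53% of all tested peaks were higher, and 3.46% and 8.17% lower. Male calls ran from 198 to 566 and from 152 to 339. At these ends 1.55% and 4.73% of all were higher, and 4.52% and 11.4% lower. In males total counts gave 744 and 174 (6.11% and 5.45% of all tested peaks) and width offsets 295 higher (2.91% of all). Interaction calls (1) became 0 with DESeq2 size factors, limma-voom or no filter. They became 5 with total counts and 8 with abundance offsets (0.0173% and 0.0266% of all tested peaks). DESeq2 gave 3, with no adjusted p for 5201 of the 6235 desert peaks. Without 1 library interaction calls ran from 0 to 97 (2.15% of all tested peaks in the last). Sex calls (2) became 1 with width offsets and 0 in runs 29 and 31, and ran from 0 to 13. Scaling to totals gave 434 higher peaks without overlap in place of 261 (3.74% of all tested peaks in place of 2.2%). A 10 kb chain gave 381 higher peaks in clusters in place of 593, with fewer tested peaks in them. The share of higher calls there was 17.2% of 2218 in place of 18.4% of 3221. The peak at chr2:98662181-98662980 went to 0.19 (edgeR adjusted p = 0.0303) with abundance offsets. The 20 rises and falls named by the rule of abundance and no overlap kept their direction and call in all alternatives. The desert share differed by 0.57 percentage points between ages, and by 0.50 to 0.65 without 1 library. The cause of these moves was not tested. Ages were not paired, because the groups share no mouse numbers and no run holds both ages, and the fit of runs 29 and 31 pairs the sexes by run.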
